A study of Mus musculus with 12 samples.

Results

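The cyclin-dependent kinase (CDK) inhibitors, the D cyclins and the retinoblastoma gene were examined in sorted brain cells. The members were 10 genes chosen for their place around p16, namely *Cdkn2a*, *Cdkn2b*, *Cdkn2c*, *Cdkn2d*, *Cdkn1a*, *Cdkn1b*, *Ccnd1*, *Ccnd2*, *Ccnd3* and *Rb1*, out of 47643 genes in the count table. Bulk RNA was sequenced from viable brain cells of 5 male p16-3MR mice on a C57BL/6 background, aged 113, 115, 116, 116 and 116 weeks (mice 1 to 5). Each mouse gave 1 sample of cells without or with low red fluorescence (RFPneg, RFP Low in the study's terms) and 1 sample with high fluorescence (RFPpos, RFP High). Samples were matched to mice by the number in their titles. All 10 samples carried the same transgene, in which the p16 promoter drives the red fluorescent protein, and the sort read the protein of that transgene rather than the endogenous transcript. The 2 single-cell samples of the series were not analysed here.

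The INK4 proteins p16, p15, p18 and p19 bind the kinases CDK4 and CDK6 and block their pairing with D cyclins, whereas the CIP/KIP proteins p21 and p27 bind a wider range of cyclin and CDK complexes. Active cyclin D kinases phosphorylate the retinoblastoma protein, which then releases E2F transcription factors and lets the cell enter S phase. In old tissue the p16 transcript is widely used as a mark of senescent cells, and most cells of the adult brain do not divide.

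The libraries counted tags at the 3′ end of transcripts, about 1 tag for each transcript sequenced, so that levels of different genes are compared here as tags and not per length of transcript. The RFPneg samples held 177287 to 415834 counts on genes (median 248471), and the RFPpos samples 222560 to 289713 (median 242798). Counts on no gene made up 34.9% on average in RFPneg (32.1% to 37.2%) and 41.5% in RFPpos (38.4% to 48.6%), so that this share moved with the comparison and its groups did not overlap. Whether the share reflects library quality was not tested. Levels are given as CPM, counts per 1e6 counts on genes, and 1 count was worth between 2.40 and 5.64 CPM. Where no count was seen, up to 3 counts were taken as possible, which is 2.24 CPM over the pooled RFPneg samples and 2.44 CPM over the pooled RFPpos samples. Such limits, and the intervals given for counts, cover counting error only.

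The label of the sort was compared with marker genes first. The 20 microglia markers summed to 22901, 15364, 16394, 14839 and 21173 CPM in RFPneg1 to RFPneg5 and to 43090, 37613, 39547, 37815 and 32756 CPM in RFPpos1 to RFPpos5. The sum was higher in the RFPpos sample of all 5 mice. All 20 genes were called higher by edgeR, against 4.27% of all genes tested. The most abundant of the 20, the protease gene *Ctss*, had 4144 ± 610 CPM (SD, n = 5) in RFPneg and 9711 ± 984 CPM (SD, n = 5) in RFPpos. The 11 endothelial markers, with *Flt1* the most abundant, summed to 4914 CPM on average in RFPneg and 237 CPM in RFPpos. The 8 oligodendrocyte markers, led by *Mbp*, fell from a mean sum of 1843 to 241 CPM, and the 6 neutrophil markers, led by *S100a8*, from 3807 to 69.2 CPM. The 6 markers of T and NK cells had 0 counts in every RFPpos sample. In bulk samples, fewer cells of a type and less RNA per cell cannot be told apart.

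The astrocyte markers were mixed. Their 8 genes, led by *Slc1a2*, summed to between 3719 and 5405 CPM in RFPneg and to 903, 2734, 5286, 5473 and 4428 CPM in RFPpos1 to RFPpos5. RFPpos1 lay below all other samples, and the RFPpos sample was the higher of the pair in 3 of 5 mice. By gene, 3 of the 8 (*Slc1a2*, *Clu* and *Gja1*) were called lower by edgeR's quasi-likelihood test, and the median log2 fold change was −0.40. Over all genes tested 7.49% were called lower, and the median was −0.15. None of the 8 was at 0 in all RFPpos samples.

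**Figure D1:**
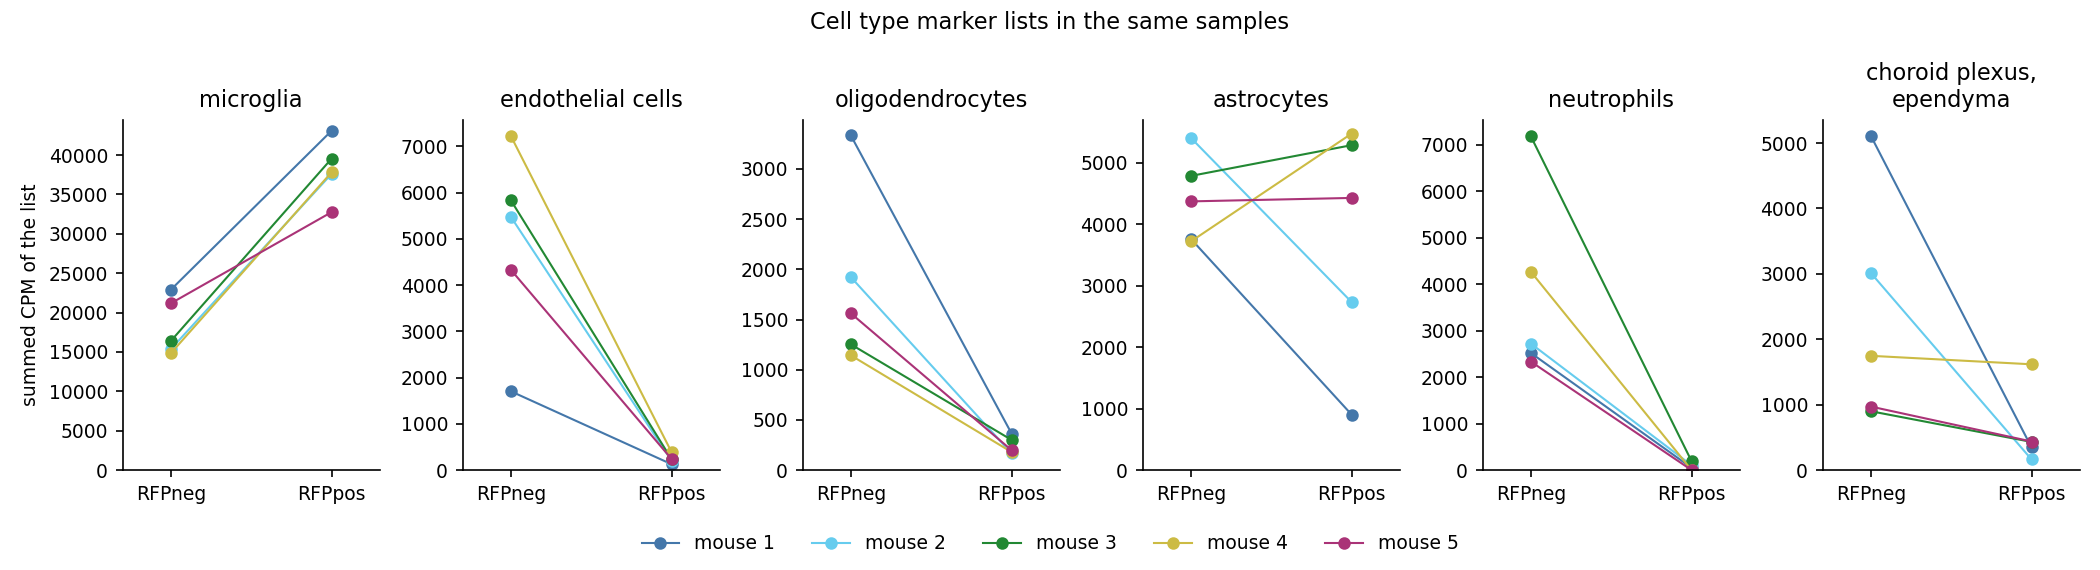
Summed CPM of 6 marker lists in the RFPneg and RFPpos samples, with a line for each of the 5 mice and a vertical axis of its own, starting at 0, for each list. The microglia sum was higher and the endothelial, oligodendrocyte, neutrophil and choroid plexus sums were lower in RFPpos in all 5 mice, while the astrocyte sum ran from 903 CPM in RFPpos1 to 5473 CPM in RFPpos4.

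*Cdkn2a* (ENSMUSG00000044303; GRCm38 chromosome 4, 89274471 to 89294653, minus strand) encodes p16 and, from an upstream start, p19Arf, and its p16 promoter is the one copied in the transgene. It had 2, 0, 0, 2 and 4 counts in RFPneg1 to RFPneg5 and 0 counts in each of the 5 RFPpos samples. The 8 counts stood in 3 of the 5 RFPneg samples, and RFPneg5 alone held 4 of them. Over the pooled samples this was 5.98 CPM in RFPneg (95% Poisson interval 2.58 to 11.8) and 0 in RFPpos (interval up to 3.00), and the intervals overlapped. The limit of 3 unseen counts, 2.44 CPM over RFPpos, lies below the RFPneg interval, so that the overlap depends on the bound taken. With 8 counts in all, *Cdkn2a* was under the minimum of 10 counts. It was tested in the alternative that kept all genes with at least 1 count, and was not called (adjusted p = 0.583, edgeR's quasi-likelihood test with Benjamini-Hochberg adjustment). Mice 2 and 3 had 0 counts in both samples, so that no direction over the 5 mice is read from these counts, and the level in the samples labelled RFPpos was below detection at this depth. Both transcripts of *Cdkn2a* end in the same exons, so that these tags do not separate p16 from p19Arf, and a row for the fluorescent protein was not used here.

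The starts of both transcripts are shown because the reporter was built on one of them while the counts join both. The sequences are the 250 bases before each start on the minus strand of GRCm38.p6, from RefSeq, at chr4:89294620-89294869 for p19Arf and chr4:89282193-89282442 for p16. Capitals mark a match to TTTNNCGC, a loose form of the E2F motif. The match in the p16 window fits none of the stricter forms searched (TTTCGCGC, TTTGGCGC and TTTCCCGC), and that in the p19Arf window is TTTCCCGC.
Cdkn2a p19Arf start: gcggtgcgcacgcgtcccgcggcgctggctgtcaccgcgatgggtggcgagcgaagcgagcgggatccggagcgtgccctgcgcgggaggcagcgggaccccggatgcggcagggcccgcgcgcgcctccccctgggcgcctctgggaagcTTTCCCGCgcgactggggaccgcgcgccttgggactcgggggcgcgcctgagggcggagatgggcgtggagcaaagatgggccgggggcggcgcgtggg
Cdkn2a p16 start: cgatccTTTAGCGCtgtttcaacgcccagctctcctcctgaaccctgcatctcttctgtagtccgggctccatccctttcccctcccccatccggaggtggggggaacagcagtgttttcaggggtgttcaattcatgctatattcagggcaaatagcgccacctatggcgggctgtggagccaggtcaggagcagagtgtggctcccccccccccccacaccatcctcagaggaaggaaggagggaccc
The motif was found once in each of the windows, 99 bases before the p19Arf start and 244 bases before the p16 start, and in 4.28% of the 32851 promoter windows of the same length. The window of p19Arf held 40 CpG and that of p16 held 7, against a median of 6 over all windows. A match describes the letters of the window and is not evidence of binding.

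The other INK4 genes were also low. *Cdkn2b* (ENSMUSG00000073802; chromosome 4, 89306299 to 89311039, minus strand), which encodes p15 and neighbours *Cdkn2a*, had 0, 2, 1, 0 and 1 counts in RFPneg1 to RFPneg5 and 0 counts in all RFPpos samples. Its pooled level in RFPneg was 2.99 CPM with an interval of 0.815 to 7.66, which includes the 2.44 CPM that RFPpos could hold unseen, so that no difference was detectable at this depth. *Cdkn2c* (chromosome 4, 109660876 to 109667189, minus strand), which encodes p18, had 2, 2, 0, 1 and 0 counts in RFPneg and 1, 0, 0, 1 and 0 in RFPpos, and the groups overlapped. Neither gene reached 10 counts, and neither was called in the alternative that kept all genes with at least 1 count (adjusted p of 0.850 for *Cdkn2b* and 0.879 for *Cdkn2c*, edgeR's quasi-likelihood test with Benjamini-Hochberg adjustment).

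Of the INK4 genes, *Cdkn2d* alone had at least 10 counts. It encodes p19, which is distinct from p19Arf, and lies on chromosome 9 (ENSMUSG00000096472; 21288410 to 21291407, minus strand). It had 9, 2, 24, 11 and 5 counts in RFPneg1 to RFPneg5, or 50.8, 10.2, 57.7, 44.3 and 16.7 CPM, and 0, 2, 3, 2 and 1 counts in RFPpos1 to RFPpos5, or at most 13.4 CPM. RFPneg2 and RFPneg5 were the low RFPneg samples, RFPneg2 lay inside the RFPpos range, and mouse 2, with 2 counts in both samples, cannot be ordered. Tested with edgeR's quasi-likelihood method and Benjamini-Hochberg adjustment, its log2 fold change had a value of −2.24 ± 0.72 (SE) and an adjusted p of 0.0199. The minimum of 10 counts was reached through the RFPneg samples alone, and the call rested on few counts: in the same edgeR test, leaving out mouse 1, 3 or 4 gave an adjusted p of 0.143, 0.137 or 0.101, and DESeq2 gave 0.0894, within a range of 9.86e-06 to 0.143 over all alternatives. The log2 fold changes in these were −1.81, −2.27, −2.16 and −2.38, in that order.

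*Cdkn1a* (ENSMUSG00000023067; chromosome 17, 29090976 to 29100727, plus strand) encodes p21, a target of p53. Its level was 22.6, 91.8, 134.7, 241.5 and 50.1 CPM in RFPneg1 to RFPneg5 and 22.5, 24.2, 71.7, 47.9 and 45.3 CPM in RFPpos1 to RFPpos5. The RFPneg samples spread widely, with RFPneg4 highest, and the groups overlapped, with the RFPneg and RFPpos samples of mouse 1 nearly equal. Tested with edgeR's quasi-likelihood method and Benjamini-Hochberg adjustment, its log2 fold change had a value of −1.15 ± 0.36 (SE) and an adjusted p of 0.0166. The RFPpos sample was the lower in 4 of 5 mice with the TMM factors used in the test, and in mouse 1, with 4 counts in RFPneg and 5 in RFPpos, the samples cannot be ordered. In mouse 5 the levels with these factors were also close, with 47.7 CPM in RFPneg (15 counts) and 46.7 CPM in RFPpos (11 counts). The call was lost in the edgeR test without mouse 2 (adjusted p = 0.125), without mouse 3 (0.0776) and without mouse 4 (0.401), and with DESeq2 (0.175), within a range of 4.24e-09 to 0.401. The log2 fold changes in these were −0.97, −1.19, −0.72 and −1.13, in that order.

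The order of *Cdkn1a* among the RFPneg samples was also that of the endothelial markers. The endothelial list summed to 1703, 5477, 5834, 7224 and 4331 CPM in RFPneg1 to RFPneg5, lowest in mouse 1 and highest in mouse 4, and to between 126 and 387 CPM in RFPpos. The 4 fibroblast markers, led by *Dcn*, had the same order in RFPneg, from 90.2 CPM in RFPneg1 to 249.5 CPM in RFPneg4, and lay between 0 and 140 CPM in RFPpos, with *Lum* at 0 in all RFPpos samples. Among the RFPpos samples the orders differed: *Cdkn1a* was highest in RFPpos3 (71.7 CPM), and the endothelial and fibroblast sums in RFPpos4 (387 and 140 CPM). *Cdkn1a* and both sums were lowest in RFPpos1. The part of endothelial cells and fibroblasts in the difference of *Cdkn1a* was not tested.

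*Cdkn1b* (ENSMUSG00000003031; chromosome 6, 134920401 to 134925513, plus strand) encodes p27, an inhibitor common in cells that have left the cycle, and had the largest mean of the inhibitors in both groups, although *Cdkn1a* was above it in RFPneg4. It had 236.9, 239.7, 276.6, 221.4 and 213.6 CPM in RFPneg1 to RFPneg5 and 89.9, 117.4, 125.5, 163.7 and 107.1 CPM in RFPpos1 to RFPpos5. The groups did not overlap, the RFPneg samples lay close together, and RFPpos4 was the highest of the RFPpos samples. How many of all genes had groups without overlap was not counted, so that this is a description alone. The group means were 238 ± 24.3 and 121 ± 27.5 CPM (SD, n = 5 each), with a difference of −0.91 ± 0.24 (SE) on the log2 scale, with an adjusted p of 0.00296 from edgeR's quasi-likelihood test with Benjamini-Hochberg adjustment. The adjusted p stayed under 0.05 without any 1 mouse, between 0.00391 and 0.0459, in the same edgeR test.

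*Cdkn2d* and *Cdkn1b* are the tested inhibitors with 1 promoter window each in the RefSeq table, and the windows are printed here to show what they share. They are the 250 bases before the start in GRCm38.p6, at chr9:21291210-21291459 on the minus strand and chr6:134920151-134920400 on the plus strand, with matches to GGGCGG (the GC box) and CCAAT in capitals on either strand.
Cdkn2d: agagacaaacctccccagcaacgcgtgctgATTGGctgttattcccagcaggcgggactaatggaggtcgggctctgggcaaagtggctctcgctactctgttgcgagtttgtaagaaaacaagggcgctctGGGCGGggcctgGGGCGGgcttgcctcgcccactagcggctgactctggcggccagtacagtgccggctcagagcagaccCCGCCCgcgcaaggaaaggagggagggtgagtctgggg
Cdkn1b: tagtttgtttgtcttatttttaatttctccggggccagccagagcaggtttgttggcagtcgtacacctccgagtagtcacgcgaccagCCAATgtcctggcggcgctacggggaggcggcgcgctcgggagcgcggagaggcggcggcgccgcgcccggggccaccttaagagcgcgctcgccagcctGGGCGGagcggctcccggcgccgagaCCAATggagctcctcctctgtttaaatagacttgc
The window of *Cdkn2d* held 3 GC boxes and 1 CCAAT, and that of *Cdkn1b* held 1 GC box and 2 CCAAT. Over all 32851 windows, GGGCGG was found in 32.7% and CCAAT in 33.8%. RefSeq windows were found for 7 of the 10 members, 11 windows in all, and GGGCGG was in 7 of these and CCAAT in 3. There was no window for *Ccnd1*, *Ccnd2* and *Rb1*. Of 12 motifs searched on both strands, TTTCCCGC (0.895% of all windows) was in 1 member window, where it was the same match as TTTNNCGC, CCGGAA (12.03%) and GTAAACA (3.17%) were each in 1 window of *Ccnd3*, and TTTCGCGC (0.256%), TTTGGCGC (0.417%), CACGTG (6.02%), TGANTCA (6.75%), TTCCNGGAA (0.913%) and CAGCTG (13.001%) were in none.

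Of the D cyclins, *Ccnd2* and *Ccnd3* were called lower by edgeR and *Ccnd1* was not called. *Ccnd1* (ENSMUSG00000070348; chromosome 7, 144929931 to 144939925, minus strand), the D cyclin that follows mitogen signals in many cells, had 146.7, 178.5, 105.8, 181.1 and 126.8 CPM in RFPneg1 to RFPneg5 and 233.6, 231.3, 224.2, 159.7 and 238.9 CPM in RFPpos1 to RFPpos5. All RFPpos samples except RFPpos4 were above every RFPneg sample, and mouse 4 alone had the lower value in RFPpos. Tested with edgeR's quasi-likelihood method and Benjamini-Hochberg adjustment, its log2 fold change had a value of 0.65 ± 0.24 (SE) and an adjusted p of 0.0566, which missed the threshold of 0.05, with 4 of 5 mice higher in RFPpos. Without mouse 4 it was 0.88 (adjusted p = 0.0126 in the same edgeR test, within a range of 0.0126 to 0.303 over all alternatives), and the direction turned where the 20 microglia genes set the library sizes, to −0.51.

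*Ccnd2* (ENSMUSG00000000184; chromosome 6, 127125162 to 127152193, minus strand) had the widest spread of the D cyclins among the RFPpos samples. Its level was 208.7, 239.7, 233.3, 152.9 and 246.9 CPM in RFPneg1 to RFPneg5 and 4.49, 62.1, 103.1, 87.8 and 238.9 CPM in RFPpos1 to RFPpos5. RFPpos1 had 1 count and RFPpos5 had 58, inside the RFPneg range, so that the groups overlapped, although the RFPpos sample was the lower of the pair in 5 of 5 mice by CPM. With the TMM factors used in the test it was the lower in 4 of 5 mice, and mouse 5 had 235.1 CPM in RFPneg and 246.1 CPM in RFPpos. Tested with edgeR's quasi-likelihood method and Benjamini-Hochberg adjustment, its log2 fold change had a value of −1.25 ± 0.26 (SE) and an adjusted p of 5.33e-05. Without mouse 1 it was −0.89 and without mouse 5 it was −1.70, with adjusted p of 0.0154 and 8.58e-07 in the same edgeR test, the extremes of the tests that left out 1 mouse.

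Among the RFPpos samples, *Ccnd2* had the same order as the sum of a list of 4 glial genes, *Fabp7* (the most abundant), *Npy*, *Frzb* and *Sox10*. *Npy* and *Fabp7* are the study's markers of glial restricted progenitors, and the other genes of the list were added here. The list summed to 107.8, 1198, 1592, 1389 and 1717 CPM in RFPpos1 to RFPpos5 and to 367, 872, 1111, 382 and 861 CPM in RFPneg1 to RFPneg5. The sum was lowest in RFPpos1 and highest in RFPpos5, as for *Ccnd2*, while in 4 of 5 mice it was higher in RFPpos, opposite to *Ccnd2*. The genes of the list did not move together: edgeR called *Npy* (log2 fold change 1.58) and *Frzb* (1.42) higher in RFPpos and *Sox10* lower (−1.59), and did not call *Fabp7* (0.23). Over all genes tested 4.27% were called higher and 7.49% lower. The astrocyte sum was likewise lowest in RFPpos1. The part of these cells in the spread of *Ccnd2* was not tested.

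*Ccnd3* (ENSMUSG00000034165; chromosome 17, 47505051 to 47599691, plus strand), the D cyclin known for its role in lymphoid cells, had the lowest mean of the D cyclins in both groups, although *Ccnd2* was below it in RFPpos1. It had 45.1, 81.6, 50.5, 60.4 and 50.1 CPM in RFPneg1 to RFPneg5 and 22.5, 34.5, 8.97, 11.98 and 24.7 CPM in RFPpos1 to RFPpos5, which were 75 and 26 counts in all. The groups did not overlap, a trait not counted over all genes, and mouse 2 was the highest in both. Tested with edgeR's quasi-likelihood method and Benjamini-Hochberg adjustment, its log2 fold change had a value of −1.43 ± 0.48 (SE) and an adjusted p of 0.0300. The call was lost in the edgeR test without mouse 2 (adjusted p = 0.0849), mouse 3 (0.164) or mouse 4 (0.160), and with DESeq2 (0.112), within a range of 7.80e-07 to 0.164, while the log2 fold change without 1 mouse lay between −1.58 and −1.22. The T and NK cell list, led by *Trbc2*, summed to between 102 and 149 CPM in RFPneg and to 0 in RFPpos, and its part in the result was not tested.

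**Figure D2:**
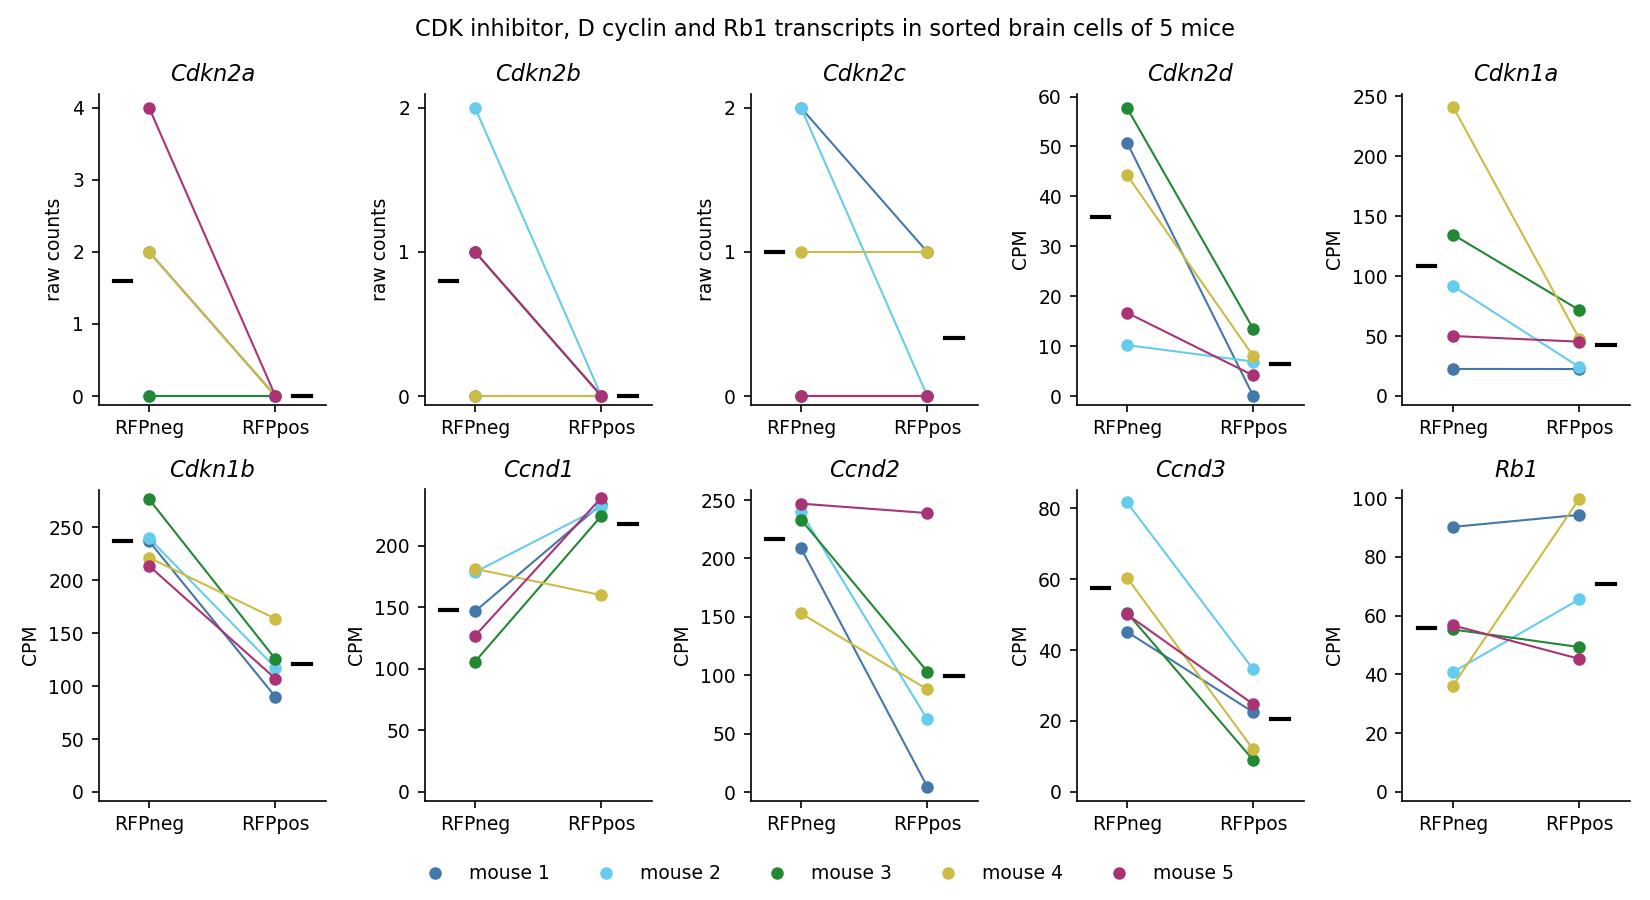
Values of the 10 members in the RFPneg and RFPpos samples, as raw counts for *Cdkn2a*, *Cdkn2b* and *Cdkn2c* and as CPM for the others, with a line for each of the 5 mice and a black bar for the mean of each group. *Cdkn2a* was at 0 in all RFPpos samples, and *Ccnd2* ran from 4.49 to 238.9 CPM in RFPpos. The groups of *Cdkn1b* and *Ccnd3* did not overlap, and how common this was over all genes was not counted.

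The share of each D cyclin within a sample does not depend on the scaling of libraries. *Ccnd1* was 35.1% ± 7.24 (SD, n = 5) of the D cyclin counts in RFPneg and 67.2% ± 15.3 (SD, n = 5) in RFPpos, a mean difference of 32.1 percentage points, and the RFPpos share was the higher in 5 of 5 mice. The RFPpos shares lay between 47.5% and 89.7% and the RFPneg shares between 27.2% and 45.9%, so that they did not overlap. *Ccnd2* fell from 51.4% ± 8.53 to 26.5% ± 17.2 and *Ccnd3* from 13.5% ± 2.20 to 6.27% ± 3.21 (SD, n = 5 each), and both were lower in RFPpos in 5 of 5 mice. *Ccnd2* was thus the leading D cyclin in RFPneg in every mouse but mouse 4, and *Ccnd1* led in RFPpos in every mouse but mouse 5, where both had 58 counts. In RFPpos1, *Ccnd2* was 1 of 58 counts, or 1.72% (95% Wilson interval 0.305% to 9.14%). The summed level of the D cyclins was 422 ± 45.6 CPM in RFPneg and 337 ± 99.1 CPM in RFPpos (SD, n = 5 each), and these ranges overlapped. Leaving out 1 mouse moved the difference of the *Ccnd1* share to between 26.9 and 36.2 percentage points.

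**Figure D3:**
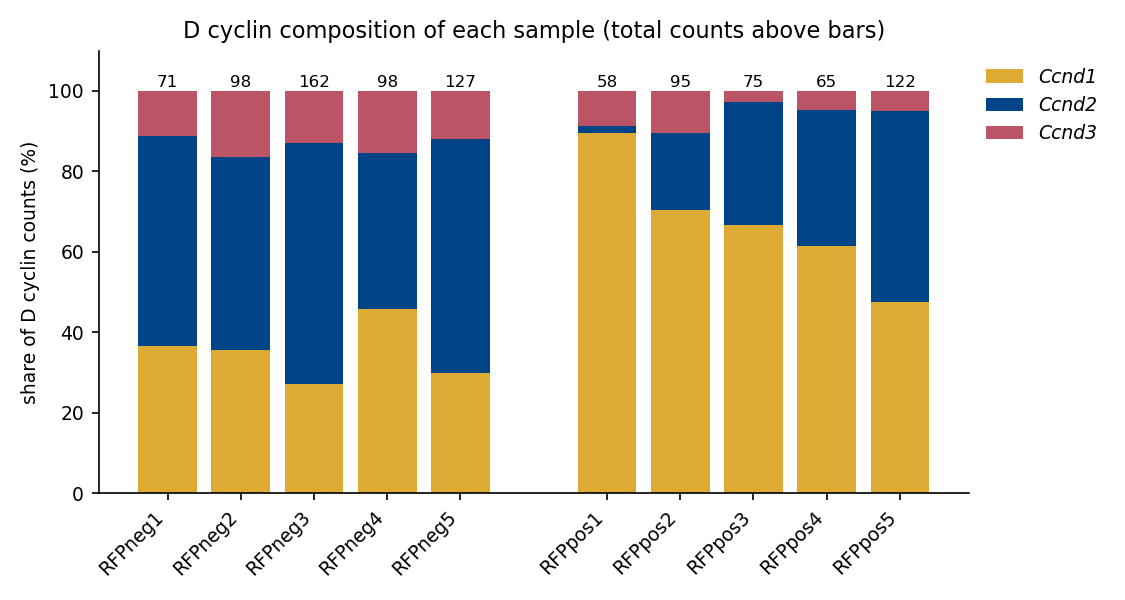
Share of *Ccnd1*, *Ccnd2* and *Ccnd3* among the D cyclin counts of each sample, in percent, with the number of D cyclin counts above each bar. *Ccnd1* held between 27.2% and 45.9% in the RFPneg samples and between 47.5% and 89.7% in the RFPpos samples.

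*Rb1* (ENSMUSG00000022105; chromosome 14, 73183673 to 73325822, minus strand), the pocket protein that D cyclin kinases phosphorylate, had 90.2, 40.8, 55.3, 36.2 and 56.7 CPM in RFPneg1 to RFPneg5 and 94.4, 65.6, 49.3, 99.8 and 45.3 CPM in RFPpos1 to RFPpos5. The groups overlapped, and 3 of 5 mice had the higher value in RFPpos. The log2 fold change was 0.40 with a 95% interval of −0.31 to 1.12 (adjusted p = 0.612, edgeR's quasi-likelihood test with Benjamini-Hochberg adjustment), and −0.75 relative to the microglia genes. Leaving out 1 mouse gave log2 fold changes between 0.18 (without mouse 4) and 0.57 (without mouse 3), with no call. *Lpar6* lies within *Rb1* on the opposite strand and had 519 counts, and *Rcbtb2* (191 counts) also overlaps *Rb1* on the opposite strand. *LTO1* (21 counts) and *Bysl* (22 counts) overlap *Ccnd1* and *Ccnd3* in the same way. Whether the counting used strand is not given in the sources used here.

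Across the members, 7 of 10 had the minimum of 10 counts, and 5 of these 7 were called lower in RFPpos and 0 higher by edgeR's quasi-likelihood test. *Cdkn2d* reached the minimum through RFPneg alone, which is the group where it was high, and without it 4 of 6 were called lower. At an unadjusted p under 0.05, *Ccnd1* was also higher, and 0 members were called higher by edgeR's likelihood ratio test, limma-voom or DESeq2. Over all 12270 genes tested, 7.49% were called lower, 4.27% higher and 11.8% in either direction. Among the 4210 tested genes that also passed edgeR's stricter count filter, 10.7% were called lower, against 4 of 6 members. With an added fold change above 1 on the log2 scale, 4 members were called, and 9.54% of all genes. DESeq2 called 2 of the 7 members lower, *Cdkn1b* and *Ccnd2*, and 4.74% of all genes tested lower.

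The share of counts on no gene, 34.9% in RFPneg and 41.5% in RFPpos, moved with the same comparison, and its part in these calls was not tested. The directions depend on the scale that is used. Of the 1443 genes called, 524 were higher and 919 lower in RFPpos. When the 20 microglia genes set the library sizes, all genes shifted by a median of −1.13 on the log2 scale, 14 genes were called higher and 5737 lower, and the same count of 5 members was called lower. On that scale the log2 fold changes of the tested members lay between −3.39 for *Cdkn2d* and −0.51 for *Ccnd1*, so that *Ccnd1* and *Rb1* no longer had values above 0. *Ccnd1* and *Rb1* were above the median gene and the other 5 members below it on both scales. As the scaling lowers all genes by a similar amount, this place was set by the TMM values and is not a further result.

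**Figure D4:**
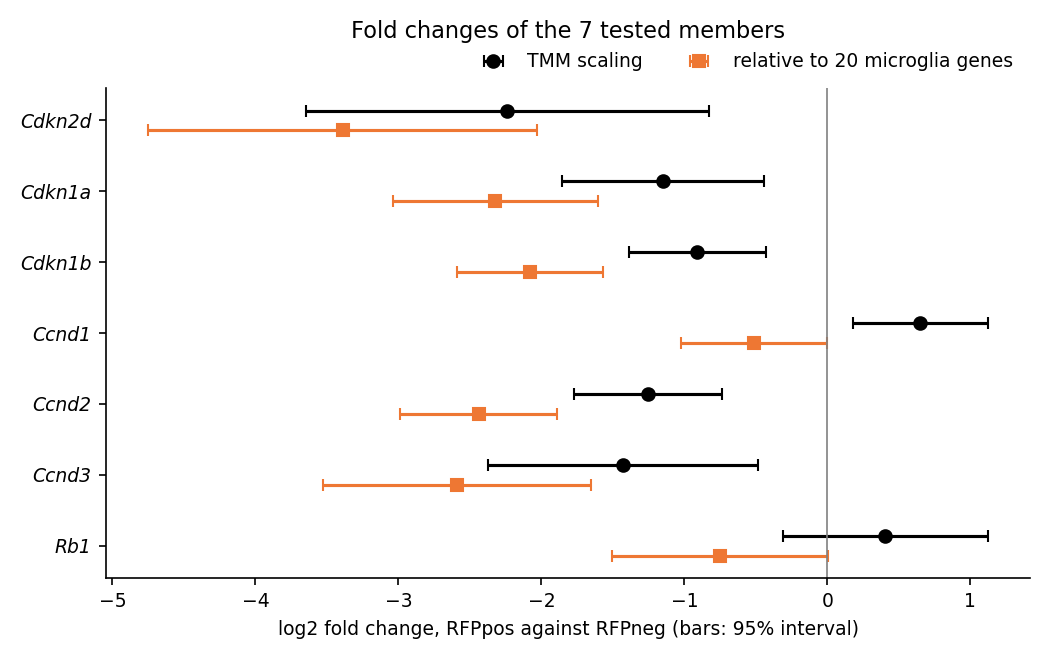
Log2 fold changes of the 7 tested members in RFPpos against RFPneg, with 95% intervals, under TMM scaling (black circles) and with library sizes from the 20 microglia genes (orange squares). *Cdkn2d*, *Cdkn1a*, *Cdkn1b*, *Ccnd2* and *Ccnd3* were below 0 on both scales, while *Ccnd1* had 0.65 and −0.51 and *Rb1* 0.40 and −0.75.

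By tags, *Cdkn1b* (238 CPM), *Ccnd2* (216 CPM) and *Ccnd1* (148 CPM) had the largest mean levels in RFPneg, beside *Cdkn1a* (108 CPM), *Ccnd3* (57.5 CPM), *Rb1* (55.9 CPM) and *Cdkn2d* (35.9 CPM). These are orders of means alone, and the ranges of all neighbours in them overlapped. *Cdkn1a* ran from 22.6 to 241.5 CPM, so that its place among the others is not set. In RFPpos the means were, in order, *Ccnd1* (218 CPM), *Cdkn1b* (121 CPM), *Ccnd2* (99.3 CPM), *Rb1* (70.9 CPM), *Cdkn1a* (42.3 CPM), *Ccnd3* (20.5 CPM) and *Cdkn2d* (6.49 CPM), and the ranges of all neighbours overlapped here too, with *Ccnd2* (4.49 to 238.9 CPM) reaching into the range of every other tested member. In RFPpos4 *Cdkn1b* (163.7 CPM) was above *Ccnd1* (159.7 CPM).

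A list of 18 genes held kinases, pocket proteins, E2F genes and their partners, the cyclin E genes and the CIP/KIP inhibitor gene *Cdkn1c*, and of these 13 were tested and 0 were called by edgeR's quasi-likelihood test. As 11.8% of all genes tested were called in either direction, 0 of 13 is near the background. At an unadjusted p under 0.05, 2 were lower, *Tfdp2* and *Ccne2*, and edgeR's likelihood ratio test called these 2, while limma-voom and DESeq2 called 0. The median log2 fold change was −0.37, against −0.15 over all genes tested, and it was the same with *Ccne2* set at its bound. *Ccne2*, the cyclin E gene that acts after the D cyclins, had 11 counts in RFPneg and 0 in RFPpos, at least 3.37-fold lower against 3 counts over the group when the 11 counts are taken without their error. It reached the minimum of 10 counts through RFPneg alone, the group where it was high, and its tests are not read as support. *Cdk6* had 85.2 ± 27.2 CPM in RFPneg and 116 ± 36.9 CPM in RFPpos (SD, n = 5 each) and was the higher in RFPpos in every mouse, by 0.53 on the log2 scale (adjusted p = 0.295, edgeR's quasi-likelihood test with Benjamini-Hochberg adjustment) that became −0.64 relative to the microglia genes. *Cdk4* was at 30.4 ± 13.4 and 23.2 ± 13.9 CPM (SD, n = 5 each), or −0.37 on the log2 scale (adjusted p = 0.810 in the same edgeR test).

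Of 22 proliferation genes, 14 were tested, 1 was called higher and 0 lower, and the median log2 fold change was −0.78. Over all genes tested 4.27% were called higher, so that 1 of 14 is near the background. *Mcm3*, a subunit of the replicative helicase, had 30.2 ± 7.72 CPM in RFPneg and 71.5 ± 9.96 CPM in RFPpos (SD, n = 5 each), or 1.34 on the log2 scale (adjusted p = 0.0152, edgeR's quasi-likelihood test with Benjamini-Hochberg adjustment). It was higher in 5 of 5 mice, was not called by DESeq2, and had 0.19 relative to the microglia genes. *Birc5* was lower at an unadjusted p under 0.05, and was called lower by edgeR's likelihood ratio test and limma-voom, while DESeq2 called 0 genes of the list. With 24 counts in RFPneg and 1 in RFPpos, *Birc5* reached the minimum of 10 counts through RFPneg alone, and its tests are not read as support. *Mki67*, a marker of cycling cells, had 18 counts in all RFPneg samples together and 9 in RFPpos, with 0 counts in 3 of the 5 RFPpos samples (log2 fold change −1.19, adjusted p = 0.596, edgeR's quasi-likelihood test with Benjamini-Hochberg adjustment).

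Of 18 genes of p53 and its targets, 17 were tested and 1 was called lower by edgeR's quasi-likelihood test, with a median log2 fold change of −0.34, while edgeR's likelihood ratio test called 4 lower, limma-voom 3 and DESeq2 1. At an unadjusted p under 0.05 the quasi-likelihood test had 4 lower and 0 higher, and 4 of the 17 log2 fold changes were above 0. Over all genes tested 7.49% were called lower, so that 1 of 17 is near the background. *Plk2*, with 22 counts in RFPneg and 1 in RFPpos, is among the 4 and reached 10 counts through RFPneg alone. The gene called was *Perp*, a p53 target of epithelial cell contacts, which reached the minimum of 10 counts through RFPneg alone and is not read as a result about the list. It had 36 counts in RFPneg and 2 in RFPpos (log2 fold change −3.78, 95% interval −5.74 to −1.81, adjusted p = 0.00260, edgeR's quasi-likelihood test with Benjamini-Hochberg adjustment) and was lower in 5 of 5 mice. *Trp53* itself had 38.2 ± 19.2 and 29.0 ± 22.7 CPM (SD, n = 5 each), or −0.42 on the log2 scale (adjusted p = 0.737 in the same edgeR test).

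The 16 genes known to act on the p16 locus, the Polycomb subunits, *Kdm6b*, the ETS factors and the Id proteins, were all tested, and 4 were called lower and 0 higher by edgeR's quasi-likelihood test, with a median log2 fold change of −0.91, while 7.49% of all genes tested were called lower. At an unadjusted p under 0.05, *Rnf2* was higher, and edgeR's likelihood ratio test called it, while limma-voom and DESeq2 called 0 genes higher. Of the 4 called genes, 3 encode Id proteins, which restrain bHLH and ETS factors. *Id1* had 251 ± 117 CPM in RFPneg and 8.76 ± 11.5 CPM in RFPpos (SD, n = 5 each), or −4.79 on the log2 scale (adjusted p = 1.45e-32, edgeR's quasi-likelihood test with Benjamini-Hochberg adjustment). *Id3* and *Id2* had log2 fold changes of −2.00 and −1.37 (adjusted p of 1.97e-13 and 1.71e-07 in the same edgeR test), and all 3 were lower in RFPpos in 5 of 5 mice. *Ets2*, a factor known to drive p16, had −1.59 (adjusted p = 0.0441 in the same edgeR test), was lower in 4 of 5 mice and was not called by limma-voom or DESeq2. *Id4* did not pass the test (log2 fold change −0.10). Relative to the microglia genes the 4 called genes were below 0 too, which was fixed in advance because that scaling lowers all genes. The endothelial sums given above fell beside the Id genes, and their part was not tested.

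A list of 14 genes held ligase subunits and a kinase that act on the turnover of p27 and the D cyclins, such as *Skp2*, *Cul1* and *Ambra1*, and the FOXO factors *Foxo1*, *Foxo3* and *Foxo4*, which act on transcription. All were tested, and 0 were called by edgeR's quasi-likelihood test, limma-voom or DESeq2, nor by edgeR's likelihood ratio test. At an unadjusted p under 0.05, 1 gene was lower, *Skp1a*, and with 11.8% of all genes tested called by the quasi-likelihood test, 0 of 14 is near the background. The median log2 fold change of the list was −0.06, and 7 of the 14 genes were above 0.

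**Figure D5:**
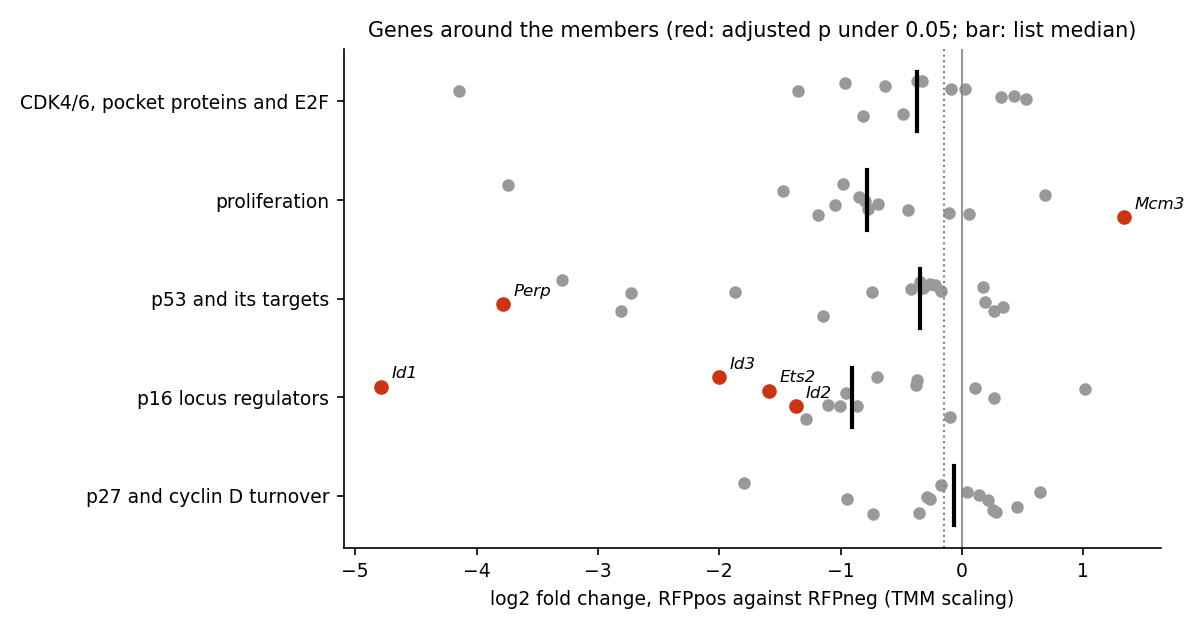
Log2 fold changes of the tested genes of 5 lists around the members, with genes at an adjusted p under 0.05 in red and named, a black bar at each list's median, a solid grey line at 0 and a dotted line at the median of all genes tested, −0.15. The called genes were *Mcm3*, *Perp*, *Id1*, *Id2*, *Id3* and *Ets2*, and of these *Mcm3* was above 0.

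The genes with the pattern most like a member were sought among 4210 genes over the 10 samples, by Pearson correlation of log2 CPM, as a description of samples that share 5 mice and fall into 2 populations. *Cdkn1b* was most like *H2-Aa* (r = 0.97), *Crip1* (0.97) and *Foxq1* (0.97). *Foxq1* had 221 counts in RFPneg and 5 in RFPpos, so that it passed the count filter through RFPneg alone, and its likeness is not read as support. The part of the gap between the groups in the likeness of this or any other member was not tested. *Cdkn1a* was most like *Rsad2* (0.88), *Fnbp1l* (0.87) and *Klhl5* (0.86). *Ccnd1* was most like *Srgap2* (0.93), *Rassf4* (0.92) and *Arhgap5* (0.91). *Ccnd2* was most like *Sema6a* (0.97), *Aspa* (0.96) and *Fjx1* (0.96), *Ccnd3* like *Polr2m* (0.91), *Slc39a10* (0.91) and *Tgm2* (0.90), and *Rb1* like *Cd37* (0.93), *Cmtm3* (0.91) and *Galnt7* (0.90).

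The CNS-associated macrophage list of 6 genes, led by *Mrc1*, summed to between 137 and 186 CPM in RFPneg and between 132 and 276 CPM in RFPpos, with RFPpos2 the highest, and was higher in RFPpos in 2 of 5 mice. Of its 6 genes, 0 were called, near the 11.8% of all genes tested that were called in either direction. *F13a1* had a log2 fold change of −1.46 and *Mrc1* of 0.65, with adjusted p of 0.0793 and 0.286 from edgeR's quasi-likelihood test with Benjamini-Hochberg adjustment. No direction is read from these 2 genes. The sums of pericytes and smooth muscle (led by *Vtn*; *Kcnj8* and *Tagln* at 0 in RFPpos), oligodendrocyte progenitors (led by *Vcan*; *Pdgfra*, *Cspg4* and *Gpr17* at 0), monocytes (led by *Ccr2*; *Ly6c2* and *Chil3* at 0), neurons and neuroblasts (led by *Map1b*) and choroid plexus and ependyma (led by *Ttr*; *Tmem212* and *Ccdc153* at 0) were lower in RFPpos in 5 of 5 mice. Their means fell from 393 to 66.9, from 86.7 to 8.31, from 210 to 9.97, from 282 to 73.6 and from 2348 to 598 CPM, in that order. The B cell sum fell from 548 to 215 CPM mainly through *Igkc*, with 416 counts in RFPneg and 2 in RFPpos. *Igkc* was the only gene called of the 4 genes of the list that were tested, and 7.49% of all genes tested were called lower. As *Igkc* reached the minimum of 10 counts through RFPneg alone, its call is not read as support. *Ighm*, the most abundant gene of the list over both groups, had 291 and 254 counts (log2 fold change 0.02, adjusted p = 0.981, edgeR's quasi-likelihood test with Benjamini-Hochberg adjustment), and *Cd79a* was at 0 in RFPpos. The immediate early genes, which respond to cell handling, summed to 452 ± 92.1 CPM in RFPneg and 373 ± 67.3 CPM in RFPpos (SD, n = 5 each). Of the 8 tested, 1 was called lower, *Dusp1*, which is near the 7.49% of all genes tested. With 46 counts in RFPneg and 7 in RFPpos, *Dusp1* reached the minimum of 10 counts through RFPneg alone, and its call is not read as support.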

How the data were processed

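The authors deposited counts per gene, not normalized, from QuantSeq 3′ FWD libraries. The authors made the bulk counts with Lexogen's pipeline for such libraries with UMIs, and their genome build and annotation are not given in the sources used here (mm10 and Cell Ranger belong to the single-cell samples). Symbols were found for 47224 of 47643 identifiers, and positions come from GENCODE M21 on GRCm38. Counts on no gene (between 32.1% and 37.2% in RFPneg and between 38.4% and 48.6% in RFPpos) and ambiguous counts (between 0.295% and 0.436%) stayed out of library sizes.

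Genes with at least 10 counts over the 10 samples were fitted with edgeR 4.0.16 in R 4.3.3 (TMM scaling, quasi-likelihood test, mouse as a block), and p-values were adjusted over all 12270 genes by the Benjamini-Hochberg method. DESeq2 1.42.0 and limma-voom (limma 3.58.1) were alternatives, beside other scalings, other count filters, no block, a fold change threshold and each mouse left out. The script was tested on simulated data. Named genes were the members, the list genes passing the test (at most 5 in each direction), *Cdk4*, *Cdk6*, *Trp53*, *Mki67*, and the 3 genes most like each member (log2 CPM, prior count 2). Others named, and the motifs printed in capitals, were chosen after their values were seen. The members and lists were chosen with earlier results of these data known. The samples are paired because both populations came from the same mice. Which samples share a mouse was read from the number in their titles, and every count of mice rests on that match. Deviations from the group means correlated within the mice so matched by 0.22, −0.04, 0.14, −0.01 and 0.01, which does not establish the match.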

Additional observations from a re-analysis of the deposited data

Results flagged for a closer look

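Among 55 groups of 5 samples examined for a value far from the rest, 3 stood apart, and chance alone sets apart about 1 in 20. *Ccnd1* was at 159.7 CPM in RFPpos4, below the other RFPpos samples, which lay between 224.2 and 238.9 CPM. The list of CNS-associated macrophages summed to 276 CPM in RFPpos2, above the range of 132 to 165 CPM in the other RFPpos samples. The choroid plexus and ependyma list summed to 1617 CPM in RFPpos4, against 162 to 437 CPM in the other RFPpos samples.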

How the results depend on the processing

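Of 104 values of the members' log2 fold changes under the alternatives, 88 kept their direction and their side of the threshold, 13 kept the direction and lost the call, 1 gained it and 2 turned. With library sizes from the microglia genes, *Ccnd1* turned to −0.51 and *Rb1* to −0.75, because that scaling lowers all genes, and 5751 genes were called in place of 1443. The stricter count filter of edgeR called 916 genes out of fewer tested. DESeq2 called 862 genes and 2 members in place of 5, and the cause was not tested. Leaving out 1 mouse, with fewer samples, called between 1065 and 1339 genes and between 2 and 5 members. Without the mouse block, which removes the paired design, 1552 genes and 5 members were called, and no call of a member changed. Without 1 mouse, the RFPpos minus RFPneg difference lay between −29.8 and −18.5 percentage points for the *Ccnd2* share. For the *Ccnd3* share it lay between −8.42 and −6.41 percentage points. As each D cyclin share differed with the same sign in 5 of 5 mice, the direction of the 15 values without 1 mouse could not turn. Depth limited *Cdkn2a*, *Cdkn2b* and *Cdkn2c*, which had 8, 4 and 7 counts over all samples and were tested only where all genes with at least 1 count were kept, where none was called by edgeR. *Cdkn2d* was not tested under the stricter count filter.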
